A study of Mus musculus with 46 samples.

Results

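The 10 genes described here encode transcription factors that set up and hold the identity of pancreatic β-cells: Pdx1, Mafa, Nkx6-1, Nkx2-2, Neurod1, Pax6, Isl1, Rfx6, Mnx1 and Neurog3. They were chosen by gene symbol, with earlier results of these data known, and all 10 were found among the 55487 genes counted. RNA was measured in 33 mouse islet libraries. Of the Tfam islets, females gave 5 libraries labelled control and 4 labelled KO, and males gave 3 and 2. Of the Clec16a islets, the RFD diet gave 4 of each label and the HFD diet 6 controls and 5 KO, and the labels write neither diet out. A further 13 liver libraries (6 control, 4 Mfn DKO and 3 Tfam KO, with AAV in their descriptions) serve here only as a tissue without islet cells. All islets were cultured overnight before total RNA was taken and treated with DNase. The labels give no age, no strain, no promoter that drives a deletion and no allele of the controls, and they give sex for the Tfam islets only.

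Islets are small clusters of endocrine cells in which β-cells release insulin beside α-cells, δ-cells and PP cells. Neurog3, a basic helix-loop-helix factor, starts the endocrine program in pancreatic progenitors and is largely switched off afterwards. In β-cells that have formed, the homeodomain factors Pdx1, Nkx6-1 and Mnx1 and the leucine zipper factor Mafa hold the program together with Nkx2-2, Neurod1, Pax6, Isl1 and Rfx6, which other islet endocrine cells use too. Together these factors act on the genes for insulin, its processing enzymes and glucose sensing. Tfam encodes a factor needed to transcribe and package mitochondrial DNA, and Clec16a a regulator of mitophagy, the removal of damaged mitochondria. The title of the series places mitochondrial signals upstream of how metabolic tissues keep their identity, and the comparisons below give the level of each factor in islets labelled KO and control.

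As a check of the labels, Tfam and Clec16a themselves come first, in CPM scaled by TMM (normalized CPM below). Tfam lay between 37.8 and 44.7 normalized CPM in the 8 control libraries and between 16.0 and 18.9 in the 6 Tfam KO libraries. Clec16a was no lower in the libraries labelled Clec16a KO than in their controls, with a log2 fold change of 0.10 ± 0.08 (SE, 9 against 10 libraries) and an adjusted p of 0.423 in edgeR's quasi-likelihood test. The deleted part of Clec16a is not given in the sources used here, so this value does not check the label. Depth was 55223041 to 83342809 counts in a Tfam islet library and 16235173 to 55810879 in a Clec16a islet library. The titles call the libraries biological replicates and do not say that each is 1 animal, so a p-value measures only the spread between these libraries, which may be partly technical.

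The sequences of 3 stretches are shown first because the results turn on the genes behind them. Isl1 and Pax6, like Neurod1, were called lower in both experiments. Isl1 had the largest Tfam change of the 10, but its Clec16a call held in only 5 of 19 fits that left out a library. Rfx6 was called lower in the Clec16a KO islets but not in the Tfam KO islets. Isl1, a LIM homeodomain factor (ENSMUSG00000042258), lies on the minus strand of GRCm38 at chr13:116298281-116309689. Pax6, a paired-domain homeodomain factor (ENSMUSG00000027168), lies on the plus strand at chr2:105668900-105697364. Rfx6, a winged-helix factor (ENSMUSG00000019900), lies on the plus strand at chr10:51677756-51730432. The stretches before their annotated starts (Isl1, chr13:116309690-116309938; Pax6, the first of 2 listed starts, chr2:105668646-105668895; Rfx6, chr10:51685268-51685517) are printed 5′ to 3′ on the gene's strand, from RefSeq on GRCm38.p6. The RefSeq start of Rfx6 lies inside the annotated span of the gene.
Isl1: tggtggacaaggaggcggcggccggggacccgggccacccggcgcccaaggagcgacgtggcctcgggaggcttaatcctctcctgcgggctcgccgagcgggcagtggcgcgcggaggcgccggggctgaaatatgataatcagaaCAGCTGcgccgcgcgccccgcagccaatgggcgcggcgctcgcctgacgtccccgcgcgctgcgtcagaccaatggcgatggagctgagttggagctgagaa
Pax6: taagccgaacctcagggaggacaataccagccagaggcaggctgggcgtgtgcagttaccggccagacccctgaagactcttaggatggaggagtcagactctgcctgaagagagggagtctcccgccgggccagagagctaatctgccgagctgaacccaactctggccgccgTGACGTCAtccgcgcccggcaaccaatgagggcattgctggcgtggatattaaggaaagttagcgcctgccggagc
Rfx6: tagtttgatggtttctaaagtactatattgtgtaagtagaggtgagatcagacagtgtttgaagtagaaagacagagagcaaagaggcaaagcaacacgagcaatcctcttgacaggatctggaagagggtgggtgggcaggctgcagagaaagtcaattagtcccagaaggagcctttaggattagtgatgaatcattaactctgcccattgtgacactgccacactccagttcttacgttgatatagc

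Capitals mark matches to 5 motifs searched on both strands: the cAMP response element TGACGTCA, the C/EBP-ATF element TGATGNAA, the TATA box TATAAA, the homeodomain core TAATTA and the E-box CANNTG. The Pax6 stretch holds 1 cAMP response element, whose first base lies 76 bases before the start. The Isl1 stretch holds 1 E-box, 103 bases before the start, and the Rfx6 stretch holds none of the 5. Among 32851 RefSeq promoters, 1.55% hold the cAMP response element, 3.45% the C/EBP-ATF element, 12.4% the TATA box, 4.84% the homeodomain core and 66.2% an E-box. A match of letters describes the sequence and shows no binding.

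In the control islets the 10 factors differed widely in level once gene length was taken into account, on the authors' TPM scale. Mafa, an activator of insulin transcription (ENSMUSG00000047591, chr15:75745490-75748228), stood at 646 ± 127 TPM (SD, n = 5) in female Tfam controls and at 315 ± 91.1 TPM (n = 4) in Clec16a controls on RFD. Neurog3 (ENSMUSG00000044312, chr10:62133090-62134763) stood at 7.45 ± 1.35 TPM (SD, n = 5) and 13.5 ± 5.64 TPM (n = 4) in the same groups. Between these ends the order by mean TPM over the 8 groups ran Mafa, Nkx6-1, Pdx1, Nkx2-2, Neurod1, Isl1, Rfx6, Pax6, Mnx1, Neurog3. Neurog3 was the lowest and Mnx1 the next lowest factor in all 33 libraries.

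Several neighbours in that order were not separated. Mafa exceeded Nkx6-1 on the TPM scale in 23 of 33 libraries, Nkx2-2 exceeded Neurod1 in 19, and Rfx6 exceeded Pax6 in 20. Nkx6-1 exceeded Pdx1, Pax6 exceeded Mnx1 and Mnx1 exceeded Neurog3 in 33 of 33. The TPM of Pax6 rests on a counted length of 11694 bases, which pools the exons of all its isoforms and places it low on a scale per length. Summed over the 10 factors, the level ran from 1561 to 1932 TPM in female Tfam controls and from 987 to 1693 TPM in Clec16a controls on HFD.

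**Figure D1:**
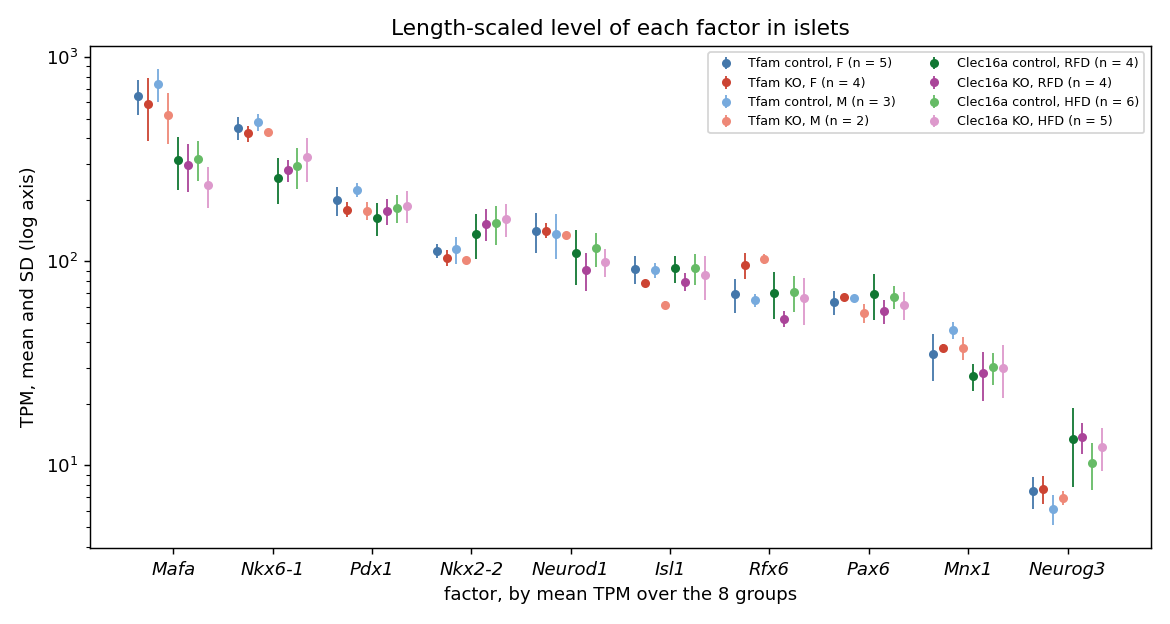
Authors' TPM of each factor (y axis, log scale) in the 8 islet groups, ordered by mean level (x axis). Points are group means and bars are 1 SD over the libraries of the group. Mafa and Nkx6-1 lie highest and Neurog3 lowest in every group.

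In liver the same genes were at or near 0. Nkx6-1, Neurod1, Isl1, Rfx6, Mnx1 and Neurog3 had 0 counts in all 13 libraries, where the limit that a count of 0 allows (3 counts) lay between 0.0527 and 0.0715 CPM. The highest liver count of any factor was 13, for Pax6. The highest level of any factor in liver was 0.241 CPM. In the islets the lowest count of any factor was 109, for Neurog3, so all 10 passed the filter on low counts in both experiments.

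Tfam loss came with lower transcripts of most of these factors. Over both sexes, 8 of 10 factors were called lower (adjusted p at most 0.05, edgeR) and 0 higher, beside 9.29% of all 19752 genes tested called lower, 11.6% higher and 20.9% in either direction. The median log2 fold change of the 10 was -0.46, against -0.01 for all genes. The 8 are Pdx1, Mafa, Nkx6-1, Nkx2-2, Neurod1, Pax6, Isl1 and Mnx1. For Pdx1, Nkx6-1, Nkx2-2, Pax6 and Isl1, all 6 KO libraries lay below all 8 control libraries. The share of all genes separated in this way was not counted, so this describes single genes only. Neurog3 and Rfx6 did not pass the test.

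Of the factors concentrated in β-cells, Pdx1 (ENSMUSG00000029644, chr5:147269959-147275848), which binds the insulin promoter, was at 209, 222, 185, 195 and 200.5 normalized CPM in female controls and at 234, 219 and 215 in male controls. It was at 124, 141, 129.7 and 156 in female KO libraries and at 133 and 144 in male KO libraries. The highest KO library lay below the lowest control library. Pdx1 thus changed by -0.60 ± 0.06 on the log2 scale (SE, 6 against 8 libraries; adjusted p 6.75e-06, edgeR). Pdx1 overlaps Plut, an antisense gene at 11.6 to 42.0 CPM in islets, but their exons do not overlap.

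Mafa, which rises as β-cells mature, varied more. Its controls were at 626, 678, 1039.6, 971 and 932 normalized CPM in females and at 1062, 965 and 765 in males. KO libraries were at 290.0, 752, 566 and 709 in females and at 432 and 602 in males. Of the 6 KO libraries, 4 lay below every control, and the groups overlapped. Mafa changed by -0.65 ± 0.19 on the log2 scale (SE, 6 against 8 libraries) with an adjusted p of 0.0210 (edgeR), and without male KO replicate 1 the adjusted p was 0.064. Over the 8 islet groups Mafa had the largest spread of the 10 factors, with a median coefficient of variation of 23.3%.

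Nkx6-1 (ENSMUSG00000035187, chr5:101658139-101664996), a homeodomain factor that keeps β-cells from turning on α-cell genes, ran from 579 to 769.8 normalized CPM with a median of 690.0 in controls. In KO libraries it ran from 427 to 510.2 with a median of 489, with no overlap, and its log2 fold change was -0.50 ± 0.07 (SE; adjusted p 1.24e-04, edgeR). Mnx1 (ENSMUSG00000001566, chr5:29473034-29478470), a homeodomain factor of the β-cell lineage, ran from 26.4 to 53.5 in controls and from 28.7 to 32.6 in KO libraries. Here the KO libraries lay within the control range, close together, and the log2 fold change was -0.42 ± 0.11 (SE; adjusted p 0.0133, edgeR).

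Of the factors shared with other endocrine cells, Isl1, Nkx2-2, Pax6 and Neurod1 fell and Rfx6 did not. Isl1 was at 185, 185, 155, 176 and 162 normalized CPM in female controls and at 146, 182 and 169 in male controls. It was at 109, 108, 107 and 115 in female KO libraries and at 93.7 and 82.3 in male KO libraries. Every KO library lay below every control, and the 2 male KO libraries were the lowest of all. Its log2 fold change of -0.74 ± 0.07 (SE, 6 against 8 libraries), or 59.8% of the control level, was the largest of the 10 (adjusted p 1.99e-06, edgeR).

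Nkx2-2 (ENSMUSG00000027434, chr2:147177546-147194243), a homeodomain factor that both activates and represses endocrine genes, ran from 134 to 171 normalized CPM in controls and from 99.8 to 117 in KO libraries. Its log2 fold change was -0.53 ± 0.06 (SE; adjusted p 2.17e-05, edgeR). Pax6 ran from 320.4 to 372 in controls and from 227 to 281 in KO libraries, a log2 fold change of -0.42 ± 0.06 (SE; adjusted p 8.95e-05). For both genes the KO and control ranges did not meet. Neurod1 (ENSMUSG00000034701, chr2:79452521-79456751), a basic helix-loop-helix activator of insulin, ran from 143 to 214 in controls and from 123 to 151 in KO libraries. Of its 6 KO libraries 5 lay below every control, and the log2 fold change was -0.38 ± 0.10 (SE; adjusted p 0.00993). Neurod1 shares exon bases with Cerkl, a gene on the same strand at 14.8 to 29.7 CPM, so its counts are uncertain to that extent.

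Rfx6, which acts in endocrine differentiation and on calcium channel genes, was not lower in the Tfam KO islets. It was at 129, 115, 139, 117 and 149.96 normalized CPM in female controls and at 125, 114 and 118 in male controls. KO libraries were at 161, 125, 129 and 132 in females and at 162 and 139 in males. The 2 highest KO libraries exceeded every control and no KO library lay below the control range. The log2 fold change was 0.17 ± 0.08 (SE), with a 95% interval from -0.01 to 0.34 and an adjusted p of 0.166 (edgeR). Neurog3 ran from 3.70 to 6.63 normalized CPM in controls and from 3.86 to 5.44 in KO libraries, with a log2 fold change of -0.29 ± 0.11 (SE; adjusted p 0.0790). Neurog3 exons overlap those of Fam241b on the other strand, at 15.9 to 32.3 CPM, and the strand setting of the counting is not given in the sources used here.

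**Figure D2:**
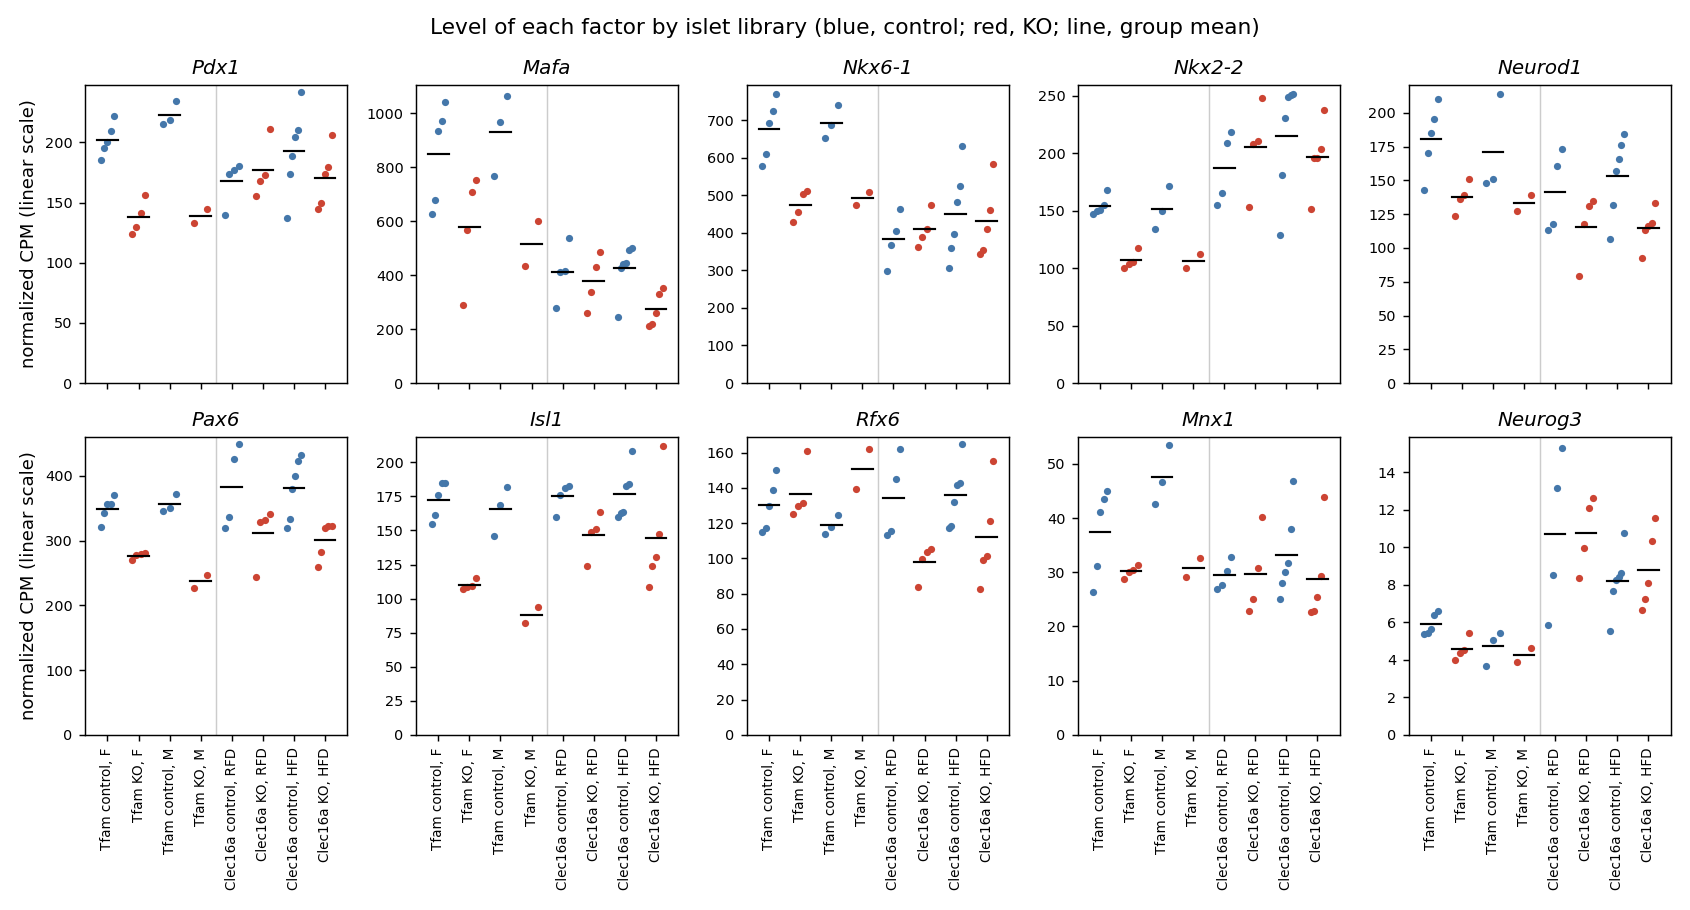
Normalized CPM (y axis, linear from 0) of each factor in every islet library, by group (x axis). Blue points are control libraries, red points KO libraries, and black lines group means. In the Tfam islets the red points of Pdx1, Nkx6-1, Nkx2-2, Pax6 and Isl1 lie below all blue points.

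These changes are relative to the bulk of genes, and the scaling matters for their size. With library totals in place of TMM, the median of all genes in the Tfam comparison moved to 0.20 on the log2 scale, and calls over all genes went from 2285 higher and 1834 lower to 6208 higher and 617 lower. On that scale 5 factors were still called lower (Pdx1, Nkx6-1, Nkx2-2, Pax6 and Isl1) and Rfx6 was called higher at 0.37. Taken relative to the shifted median, Isl1 was at -0.73, Pdx1 at -0.59 and Rfx6 at 0.17. On the authors' TPM, as log2(TPM + 1), the median of all genes moved to 0.33. There Neurod1 and Neurog3 changed sign to 0.02 and 0.11, but lay at -0.31 and -0.22 relative to that median. Transcripts of β-cell markers were high in every Tfam islet library. The summed level of 6 β-cell markers, Ins1, Ins2, Iapp, Slc2a2, G6pc2 and Ucn3, ran from 186844 to 293501 normalized CPM in controls. In Tfam KO libraries that sum ran from 104953 to 140188. Being scaled by TMM, it is not an exact share of the library.

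All 6 of those β-cell markers, which are also on the list of target genes below, were called lower in the Tfam KO islets. In bulk islets, fewer β-cells and less RNA per β-cell cannot be told apart. Among markers of the other islet cells, 1 of 8 α-cell, 2 of 5 δ-cell and 0 of 3 PP-cell genes were called lower, and none higher. Beside these, 9.29% of all genes were called lower and 11.6% higher. Summed α-cell markers ran from 25921 to 107291 normalized CPM in controls and from 39488 to 54675 in KO libraries. In males they ran from 25921 to 35530 in controls and from 39488 to 52533 in KO libraries. In females they ran from 50809 to 107291 and from 42202 to 54675. Of 12 acinar markers none was called, with sums from 1158 to 11117 in controls and from 1750 to 20202 in KO libraries. Outside the endocrine and acinar lists, 2 of 7 fibroblast and stellate markers were called higher, with sums from 27.8 to 66.4 normalized CPM in controls and from 43.7 to 84.4 in KO libraries. Of the duct, macrophage and Schwann lists 1 gene each was called higher, and of 6 endothelial markers none was called. In lists this short, 1 call is not far above the 11.6% of all genes called higher. By sex, the 2 male KO libraries lay above every male control in the α-cell, duct, macrophage, fibroblast and stellate, and Schwann sums. Their δ-cell, PP-cell, acinar and endothelial sums overlapped those of male controls. Female KO libraries lay below every female control in the δ-cell sum and overlapped them in the other lists outside the β-cell list. No marker of any list was at 0 in a whole islet group, and the part of cell makeup in the factors' change was not tested.

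The fall was seen in both sexes. In females 5 of 10 factors were called lower (Pdx1, Nkx6-1, Nkx2-2, Pax6 and Isl1), beside 4.17% of all genes lower, 6.67% higher and 10.8% in either direction. In males 6 were, the same 5 and Mnx1, beside 3.69% of all genes lower, 5.24% higher and 8.93% in either direction. Isl1 changed by -0.65 ± 0.08 (SE, 4 against 5 libraries, log2) in females and by -0.91 ± 0.11 (SE, 2 against 3) in males. Mnx1 changed by -0.63 ± 0.18 in males (adjusted p 0.0461, edgeR), and that call held only without control replicate 1 when each male library was left out in turn. The male call of Nkx6-1 held in 1 of those 5 fits, and without KO replicate 2, 3 factors were called in males. Leaving out a male KO library leaves 1 in that arm, which is then assumed to vary like the other groups of the fit.

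No factor's change was called different between the sexes: 0 of 10 by edgeR's interaction test, beside 0% of all genes. In edgeR 1 of the 10 had an unadjusted p under 0.05, beside 1230 genes. The Wald test of DESeq2 called 0 of 10, beside 34 of 19752 genes. Pax6 had the smallest p of the 10, with a difference of -0.25 ± 0.11 (SE, log2, males minus females; adjusted p 0.758). In controls alone, 0 of 10 factors were called between males and females, beside 1.53% of all genes. Of the 10, 1 had an unadjusted p under 0.05, beside 2883 genes. Mnx1 had the smallest p there: it ran from 42.6 to 53.5 normalized CPM in male controls and from 26.4 to 45.0 in female controls, a log2 difference of 0.35 ± 0.14 (SE; adjusted p 0.269).

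The Clec16a islets gave a narrower picture. Over both diets, 4 of 10 factors were called lower in the libraries labelled Clec16a KO and 0 higher, beside 10.4% of all 17254 genes tested called lower, 12% higher and 22.4% in either direction. The 4 are Pax6, Rfx6, Neurod1 and Isl1. Mafa, at -0.41 on the log2 scale, had a larger estimate than any of the 4 and did not pass. Pdx1, Nkx6-1, Nkx2-2, Mnx1 and Neurog3 had estimates between -0.11 and 0.05 on the log2 scale and did not pass the test. The median of the 10 was -0.19, against 0.00 for all genes. For each factor the KO and control libraries overlapped over both diets.

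Pax6 was at 337, 319, 449 and 426 normalized CPM in controls on RFD and at 341, 332, 329 and 243 in KO libraries on RFD. On HFD its 6 controls ran from 319.7 to 432 with a median of 389.9, and the KO libraries were at 259.9, 282, 323, 320.3 and 323. Of the 9 KO libraries, 3 lay below every control and none above the control range. The log2 fold change over both diets was -0.32 ± 0.09 (SE, 9 against 10 libraries; adjusted p 0.00948, edgeR), and the call held without each library in turn.

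Rfx6 was at 116, 113, 162 and 145 normalized CPM in controls on RFD and at 103, 106, 99.6 and 83.6 in KO libraries on RFD, with no overlap. On HFD its controls ran from 117 to 165 with a median of 137, and the KO libraries were at 82.6, 99.2, 121, 155 and 101. KO replicate 4 on HFD, at 155, was the only KO library above 121. The log2 fold change over both diets was -0.35 ± 0.11 (SE; adjusted p 0.0190, edgeR), and this call too held without each library in turn.

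Neurod1 was at 118, 113, 161 and 173 normalized CPM in controls on RFD and at 135, 117, 131 and 79.6 in KO libraries on RFD. On HFD its controls ran from 107 to 184 with a median of 161, and the KO libraries were at 92.6, 119, 117, 133 and 114. The ranges overlapped on both diets, and the log2 fold change over both was -0.36 ± 0.12 (SE; adjusted p 0.0297, edgeR). The call held in 13 of the 19 fits that left out a library.

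Isl1 was at 176, 160, 181 and 183 normalized CPM in controls on RFD and at 151, 164, 149 and 124 in KO libraries on RFD. On HFD its controls ran from 160 to 209 with a median of 173, and the KO libraries were at 109, 124, 130.4, 212 and 147. KO replicate 4 on HFD, at 212, was the highest of all 19 libraries, while 7 of the 9 KO libraries lay below every control. Isl1 changed by -0.28 ± 0.10 over both diets (SE, log2; adjusted p 0.0467, edgeR). Isl1 kept its call in only 5 of the 19 fits that left out a library.

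Mafa did not pass the test over both diets, at a log2 fold change of -0.41 ± 0.16 (SE; adjusted p 0.0701, edgeR). On RFD it was at 536, 278, 416 and 412 normalized CPM in controls and at 429, 261, 486 and 339 in KO libraries, which overlapped throughout. On HFD it was at 500.2, 443, 424, 491, 444 and 243 in controls and at 354, 329, 219, 213 and 259 in KO libraries. All 5 KO libraries on HFD lay below 5 of the 6 controls, and control replicate 6 lay among them. The log2 fold change on HFD was -0.63 ± 0.20 (SE, 5 against 6 libraries; adjusted p 0.0538), and without control replicate 6 it was -0.75 (adjusted p 0.018). The Mafa change was not called different between the diets by the interaction test, at -0.51 ± 0.31 (SE, log2, HFD minus RFD; adjusted p 0.9999).

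**Figure D3:**
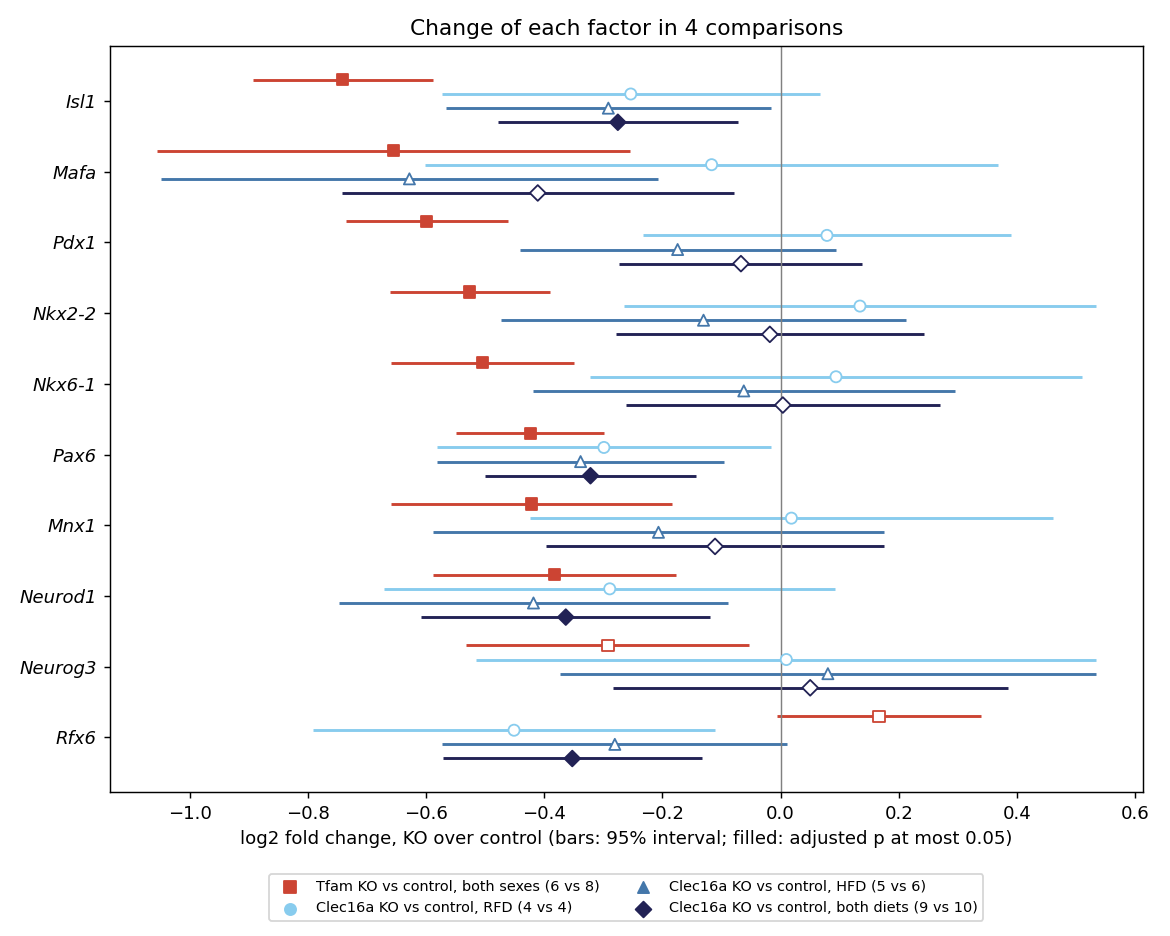
Log2 fold change of each factor (x axis), KO over control, for the Tfam islets (females and males together) and for the Clec16a islets on RFD, on HFD and over both diets, with 95% intervals and the number of KO and control libraries. Filled symbols passed an adjusted p of 0.05 in edgeR. Rfx6 is the 1 factor whose Tfam estimate, 0.17, lies above 0 while all 3 of its Clec16a estimates lie below 0.

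Within a single diet no factor was called. On RFD 0 of 10 passed, beside 7.52% of all genes called in either direction. In edgeR 2 of the 10 had an unadjusted p under 0.05, beside 3866 of all 17254 genes. The Wald test of DESeq2 called 0 of the 10, beside 1854 of all genes. Rfx6 had the smallest adjusted p there, 0.0997, at -0.45 ± 0.16 (SE, log2, 4 against 4 libraries). On HFD 0 of 10 passed, beside 9.57% of all genes. In edgeR 4 of the 10 had an unadjusted p under 0.05, beside 4001 of all 17254 genes. The Wald test of DESeq2 called 2 of the 10, beside 2128 of all genes. The HFD count rose to 3 without KO replicate 4 (Pax6, Isl1 and Rfx6) and to 3 without control replicate 6 (Mafa, Neurod1 and Pax6). Diet by itself moved none of the 10 past the test. In controls 0 were called, beside 0.0406% of all genes, and 0 had an unadjusted p under 0.05, beside 973 genes. In KO libraries 0 were called, beside 0.0116% of all genes, and 1 had an unadjusted p under 0.05, beside 946 genes. Neurog3 had the smallest p in controls, -0.37 ± 0.23 (SE, log2, HFD minus RFD; adjusted p 0.999), and Mafa in KO libraries, -0.46 ± 0.22 (SE; adjusted p 0.905). The genotype by diet interaction called 0 of 10 factors by edgeR, beside 0% of all genes. Of the 10, 0 had an unadjusted p under 0.05 there, beside 406 genes. The Wald test of DESeq2 also called 0 of 10 factors in each of these diet comparisons. Beside that it called 53 of 17254 genes between diets in controls, 41 in KO libraries and 20 in the interaction. Between male and female Tfam controls it called 0 of 10 factors, beside 985 of 19752 genes. Summed acinar markers ran from 4874 to 10726 normalized CPM in Clec16a controls on RFD and from 10664 to 32661 on HFD. Summed α-cell markers ran from 57652 to 79295 and from 33947 to 52539 in the same groups. Their part in the diet comparisons was not tested.

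For the factors that did not pass, the intervals bound the change. Over both diets the 95% interval of the log2 fold change ran from -0.27 to 0.14 for Pdx1, from -0.26 to 0.27 for Nkx6-1 and from -0.28 to 0.24 for Nkx2-2. Those of Mnx1, from -0.40 to 0.18, and Neurog3, from -0.28 to 0.38, were wider. For Mafa, which did not pass either, the interval ran from -0.74 to -0.08. Pdx1 ran from 137 to 242 normalized CPM in the 10 controls and from 145 to 211 in the 9 KO libraries, so the KO range lay inside that of the controls. The same held for Nkx6-1, at 297 to 629.7 in controls and 345 to 583 in KO libraries, and for Nkx2-2, at 129 to 252 and 151 to 248.

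Some values of the preparation moved with the Clec16a label. The calls below stand beside 12% of all genes called higher and 10.4% lower over both diets. All 6 endothelial markers were called higher in the KO libraries over both diets, with summed levels of 333 to 445 normalized CPM in controls and 378 to 702 in KO libraries. Of 7 fibroblast and stellate markers 4 were called higher, from 37.2 to 69.9 in controls and from 54.4 to 111 in KO libraries. Among 8 α-cell markers 2 were called higher and 1 lower, and summed acinar markers ran from 4874 to 32661 in controls and from 2116 to 21721 in KO libraries. Of the 6 β-cell markers 4 were called lower, with sums from 210507 to 348593 in controls and 138263 to 249974 in KO libraries. Their part in the factors' change was not tested. With library totals in place of TMM no factor was called over both diets, and the median of all genes moved by under 0.1 there and to 0.12 on HFD. Calls over all genes went from 2066 higher and 1793 lower to 3042 higher and 1046 lower over both diets.

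For the Clec16a islets the deposited files carry a sequencing lane in their names. Within lane 7 and lane 8 the Pax6 difference of mean log2 CPM on HFD was -0.48 (2 KO, 3 control) and -0.21 (3 and 3), and that of Rfx6 was -0.51 and -0.18. On RFD the Rfx6 difference was -0.26 in lane 7 (3 KO, 2 control) and -0.54 in lane 8 (1 and 2). The sign was the same in both lanes for Pax6, Rfx6, Neurod1 and Isl1 on both diets. These were called from the same libraries, so the split is no separate test of them. On HFD the sign was also the same for Mafa (-0.59 and -0.60), Pdx1 (-0.15 and -0.12), Mnx1 and Nkx6-1, but not for Nkx2-2 or Neurog3. On RFD it differed between the lanes for every factor not called over both diets. For Neurod1 on RFD the difference was only -0.04 in lane 7, against -0.51 in lane 8, which rests on 1 KO library. Mafa on RFD went from 0.10 in lane 7 to -0.67 in lane 8.

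**Figure D4:**
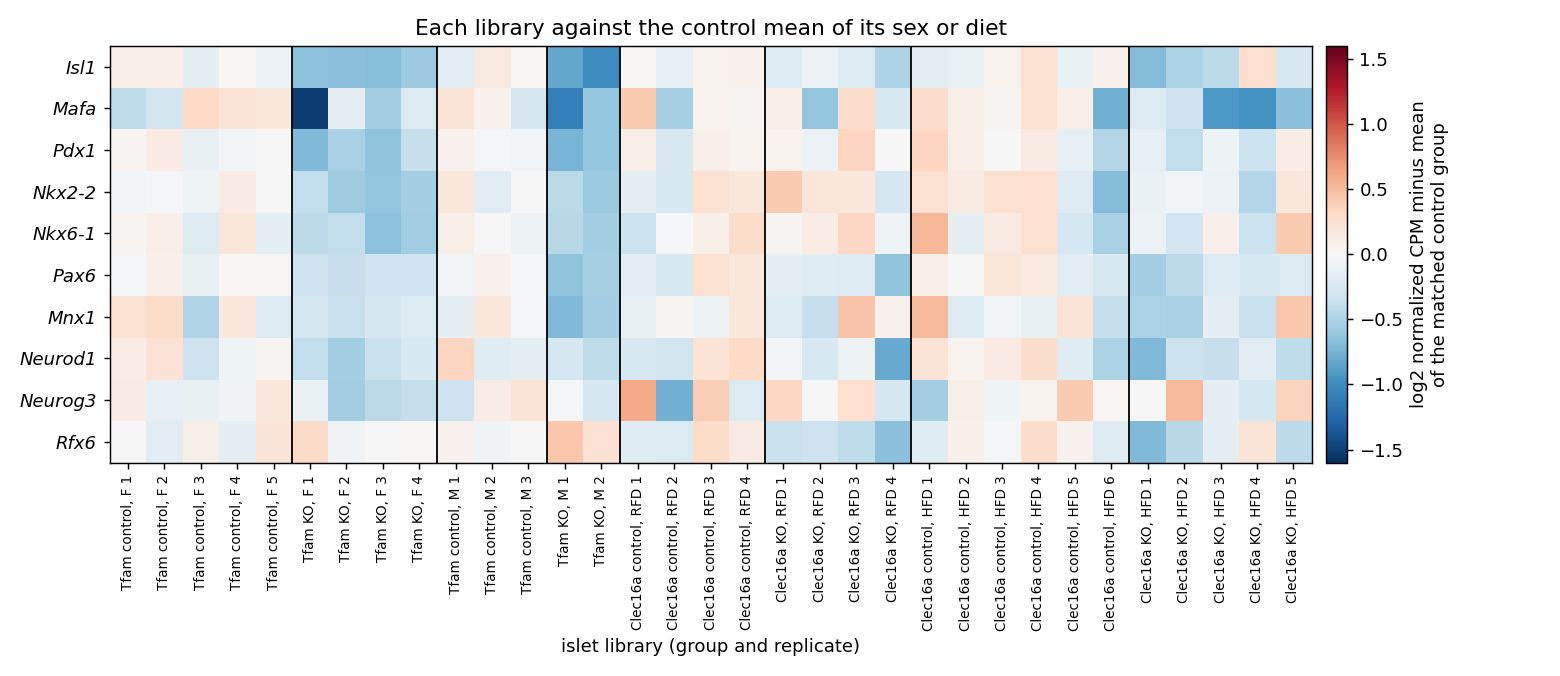
Log2 normalized CPM of each factor (rows) in each islet library (columns, grouped by label) minus the mean of the control group of the same sex or diet, from blue (lower) to red (higher). Of the 6 Tfam KO libraries, each has at least 9 of 10 factors below the control mean, while single Clec16a KO libraries range from 4 to 9.

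Read by library, the Tfam KO islets were alike. Each of the 6 KO libraries had 9 or 10 of the 10 factors below the mean of the controls of its sex, and the median deviation over the factors ran from -0.35 to -0.54 on the log2 scale. The 9 Clec16a KO libraries had between 4 and 9 factors below the mean of their diet's controls. KO replicates 1 and 2 on HFD were the lowest, each at a median of -0.37 with 9 factors below, and KO replicate 3 on RFD was at 0.22 with 4 below. Control replicate 6 on HFD was at -0.42 with 8 below, lower than every KO library.

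The 2 experiments were then compared directly, in 1 fit over all 33 islet libraries that was added after the data had been seen. The Tfam effect differed from the Clec16a effect for 5 of 10 factors (Pdx1, Isl1, Rfx6, Nkx2-2 and Nkx6-1), beside 16.3% of all genes in that fit. Pdx1, Nkx2-2 and Nkx6-1 were lower in the Tfam KO islets and near their controls in the Clec16a KO islets. For Pdx1 the effects were -0.65 and -0.05, a difference of -0.60 (95% interval -0.87 to -0.32; adjusted p 0.00210, edgeR). Nkx2-2 differed by -0.55 (adjusted p 0.0211) and Nkx6-1 by -0.54 (adjusted p 0.0329). Isl1 was lower in both and differed by -0.54 (95% interval -0.82 to -0.25; adjusted p 0.00748).

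Rfx6 went the other way: its effects were 0.18 in the Tfam islets and -0.37 in the Clec16a islets, a difference of 0.55 (95% interval 0.24 to 0.85; adjusted p 0.0115, edgeR). Neurod1 and Pax6 gave no called difference, at -0.05 (95% interval -0.41 to 0.31) and -0.17 (-0.41 to 0.07). Mafa differed by -0.35, with a wide interval from -0.88 to 0.17. With library totals in place of TMM, 2 factors differed, Pdx1 and Rfx6. The experiments had separate controls and separate depths, and experiment and library preparation cannot be told apart in the level of a gene, although each effect is a contrast within its experiment.

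**Figure D5:**
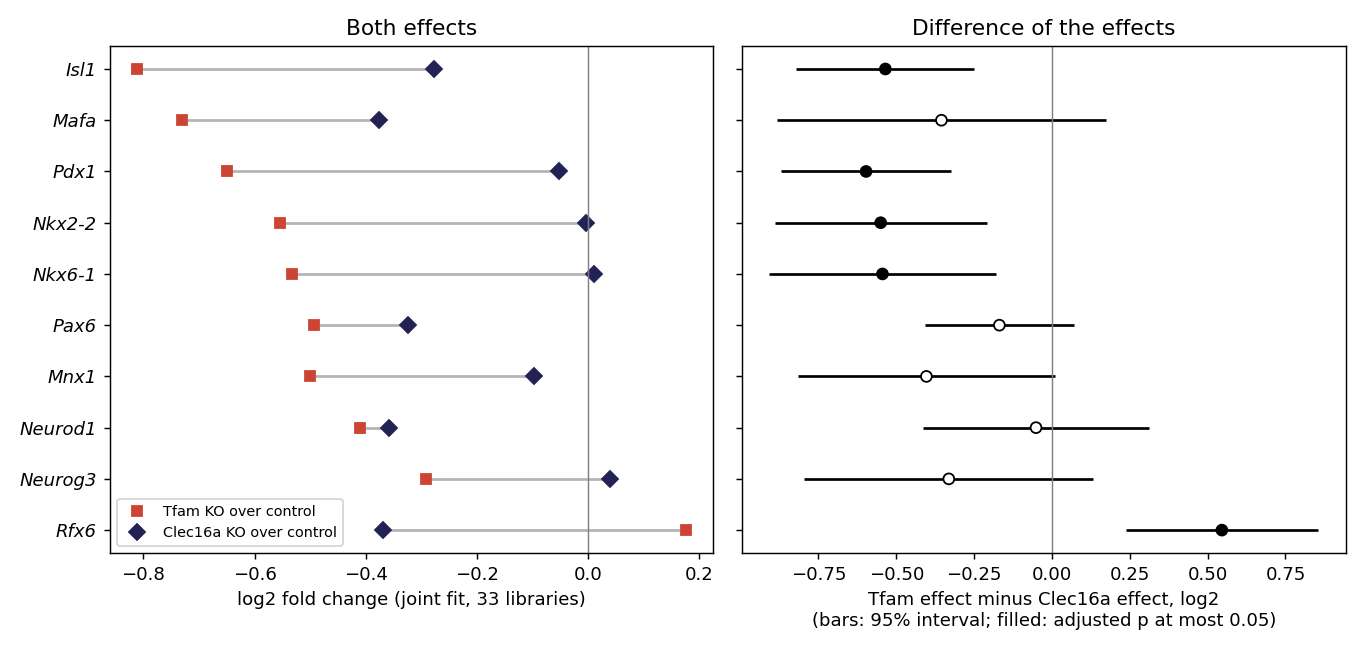
Left, log2 fold change of each factor in the Tfam islets (squares) and the Clec16a islets (diamonds) from the joint fit. Right, the difference of the effects with 95% intervals, filled where the adjusted p is at most 0.05. Pdx1, Nkx2-2, Nkx6-1 and Isl1 lie left of 0 and Rfx6 right of it.

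A list of 20 β-cell target genes, 6 of them the β-cell markers above, was also chosen with earlier results of these data known. Of the 20, 18 were called lower in the Tfam KO islets and 0 higher, beside 9.29% of all genes called lower. Their median log2 fold change was -0.62 against -0.01 for all genes. Ins1, an insulin gene, went from 34718 ± 5698 (SD, n = 8) to 14383 ± 1459 normalized CPM (n = 6), a log2 fold change of -1.26 ± 0.10 (SE; adjusted p 1.76e-07, edgeR). Ucn3, a peptide of mature β-cells, went from 511 ± 51.6 to 278 ± 27.4, and Ero1b, an oxidase of proinsulin folding listed under its older symbol Ero1lb, from 2574 ± 409 to 1325 ± 154. In the Clec16a islets over both diets 12 of the 20 were called lower and 0 higher, beside 10.4% of all genes called lower, with a median of -0.50. Ucn3 changed by -0.96 ± 0.10 (SE, log2), Glp1r, the receptor for the incretin GLP-1, by -0.67 ± 0.10, and Gjd2, a gap junction protein of β-cells, by -0.70 ± 0.11. On each diet alone 9 of the 20 were called lower and 0 higher, beside 3.54% of all genes called lower on RFD and 3.95% on HFD.

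Of 20 partner factors of the 10, 2 were called higher and 4 lower in the Tfam KO islets, beside 11.6% and 9.29% of all genes, with a median log2 fold change of -0.04. St18, a zinc finger factor related to Myt1, changed by -0.47 ± 0.07 (SE), and Foxa2, a forkhead factor that acts on Pdx1, by -0.32 ± 0.07. Insm1, a zinc finger factor of endocrine differentiation, was higher, from 283 ± 29.3 (SD, n = 8) to 413 ± 68.3 normalized CPM (n = 6), a change of 0.54 ± 0.10. Of the 19 partners tested in the Clec16a islets over both diets, 4 were called higher and 6 lower, beside 12% and 10.4% of all genes, with a median of 0.00. Tle3, a corepressor that Nkx2-2 recruits, went from 131 ± 17.1 (SD, n = 10) to 74.9 ± 11.8 normalized CPM (n = 9), a change of -0.81 ± 0.09. Tle3 was the 1 partner called on each diet alone. Hnf4a changed by -0.26 ± 0.07 and Myt1 by -0.47 ± 0.12, and Ldb1, the cofactor of Isl1, by -0.31 ± 0.09. The Clec16a partners named here were all lower, and the 4 called higher are not named, so these values do not describe the list.

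Of 8 factors of other islet lineages tested, 1 was called lower in the Tfam KO islets, beside 9.29% of all genes: Hhex, a δ-cell factor, at -0.36 ± 0.11 (SE, log2). In the Clec16a islets over both diets the median log2 fold change of the 8 was 0.24, against 0.00 for all genes. Etv1, an ETS factor, was called higher and went from 38.8 ± 6.45 (SD, n = 10) to 70.4 ± 19.2 normalized CPM (n = 9), a change of 0.85 ± 0.14 (SE, log2). Of 11 progenitor and duct factors tested, Myc and Mycl were called higher in the Tfam KO islets and none lower, beside 11.6% of all genes called higher. Myc went from 3.17 ± 0.756 (SD, n = 8) to 11.5 ± 3.31 normalized CPM (n = 6), a change of 1.86 ± 0.18. In the Clec16a islets over both diets 1 of the 11 was called higher and 2 lower, beside 12% and 10.4% of all genes. The median log2 fold change of the 11 was -0.0004. Dll1, a Notch ligand, changed by -0.84 ± 0.16 and Foxa3 by -0.62 ± 0.09, while Hes1, a Notch target, rose by 0.50 ± 0.12.

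The gene most like each factor across the libraries of an experiment was found by Pearson's r of log2 CPM, as a description. In the 14 Tfam islet libraries, which share the genotype split, Pdx1 was closest to Amd1 (r = 0.97, Spearman's rho 0.96), Isl1 to Slc16a10 (r = 0.97) and Nkx6-1 to Pomgnt2 (r = 0.96). Rfx6 had the loosest best match there, Map4k1 at r = 0.85. In the 19 Clec16a islet libraries Rfx6 had the closest, Itsn2 (r = 0.95, rho 0.95), followed by Pax6 with Bcl9 and Isl1 with Zim1 (r = 0.94 each), and Mafa had the loosest, Sdhaf1 at r = 0.77. No factor had the same nearest gene in both experiments.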

How the data were processed

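Total RNA of islets and liver was sequenced as paired-end reads, per the labels' protocols. The submitters' processing notes name FastQC, MultiQC, STAR 2.6.1b, RSEM 1.3.1, featureCounts and DESeq2 with the build GRCm38, without role or order, and strand setting and annotation are not given in the sources used here. The authors deposited a raw count, a CPM and a TPM for each of 55487 genes and 46 libraries, per the file headers. Gene positions and exon lengths came from the GENCODE M21 annotation of GRCm38.

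Counts were normalized by TMM, filtered with filterByExpr and tested with edgeR 4.0.16 (quasi-likelihood, R 4.3.3, limma 3.58.1), each islet experiment alone and with sex or diet as an additive term where both were pooled. P-values were adjusted by Benjamini-Hochberg over all genes tested and called at 0.05 or less. Alternatives were library totals, the size factors and Wald test of DESeq2 1.42.0, other filters on low counts, a replicate block, lane or an exocrine marker score as a covariate, and leaving out each library. A joint fit of all islet libraries was added after seeing the data. The fit was tested on simulated data. TPM gave the levels, and differences of log2(TPM + 1) were a description with no test.

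All 10 factors were named in the main comparisons, with every called factor or the one of smallest p in the others. Of each list, the genes of smallest adjusted p and those needed by role were named. The members and lists were chosen with earlier results of these data known. Replicate numbers were taken as counters within a group and not as pairs in the main fits. Residual correlations of same-numbered libraries ran from -0.0965 to 0.212 (6 Tfam pairs) and from -0.202 to 0.307 (9 Clec16a pairs). Libraries with different numbers were not correlated for comparison, so these values do not decide whether the numbers pair libraries. The lane came from the names of the deposited files. Liver entered no test. A result of the list of other islet lineage factors is not reported here.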

Additional observations from a re-analysis of the deposited data

Results flagged for a closer look

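A single library lay far from the rest of its group for 2 of 60 pairs of factor and group with 4 to 10 libraries, where chance gives about 1 in 20. Mafa was lowest in Clec16a control HFD replicate 6, at 243 normalized CPM, with the other 5 controls between 424 and 500.2. Pax6 was lowest in Clec16a KO RFD replicate 4, also at 243 normalized CPM, with the other 3 libraries between 329 and 341.

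In liver, which no comparison used, some factors had counts above the highest liver control. Mafa had 8 counts (0.145 CPM) in Mfn DKO replicate 4, against at most 4 in the controls. Nkx2-2 had 4 counts (0.0762 CPM) in Tfam KO replicate 1 and 6 counts (0.111 CPM) in Tfam KO replicate 2, against 0 in the controls. Pax6 had 13 counts (0.241 CPM) in Tfam KO replicate 2, against at most 11 in the controls.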

How the results depend on the processing

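Under alternatives other than leaving out a library, 85 counts of called factors stayed within 1.5 times of the main count, 6 rose past that and 2 fell past it. This tally includes RFD, HFD, both interactions, the sexes in controls and the diets, where the main count was 0. There, staying means only that no factor was gained, and all 6 rises came from RFD and HFD. Within that margin single calls changed: with library totals the Tfam count over both sexes went from 8 to 6, where Mafa (adjusted p 0.068), Neurod1 (0.218) and Mnx1 (0.175) were lost and Rfx6 was gained (edgeR). On RFD, 1 factor (Rfx6, -0.55) was called with an exocrine score as a covariate. On HFD, 1 was called with no filter on low counts, 1 with at least 10 counts in every library, 1 with the replicate block, 1 with the exocrine score and 2 by the Wald test of DESeq2. With library totals 0 were called over both diets, and 2 differed between the experiments. Small estimates changed sign. With library totals, Nkx6-1 on HFD was 0.068, and over both diets Pdx1 was 0.017 and Nkx2-2 0.063. With the replicate block, Mnx1 on RFD was -0.0084 and Nkx6-1 over both diets -0.049. With lane as a covariate these were -0.055 and -0.00685. Neurog3 on RFD was -0.10 with the exocrine score. The block also brought Rfx6 in the Tfam islets (0.20) past the threshold, and Mafa on HFD and over both diets, and lost Isl1 over both diets.

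Leaving out each library in turn gave 7 to 9 factors called in Tfam islets over both sexes, 5 to 7 in females, 3 to 5 in males, 0 to 3 on HFD, 2 to 5 over both diets and 3 to 5 that differed between the experiments, and 0 to 0 on RFD, in both interactions, between sexes and between diets. The count over both diets was 2 without control HFD replicate 3 or 4, control RFD replicate 3 or 4, KO HFD replicate 1 or KO RFD replicate 4. The difference between the experiments was called for 3 factors without Tfam KO female replicate 3, either Tfam KO male replicate or Clec16a KO RFD replicate 1. Neurog3 was called in the Tfam islets without male control replicate 1 (adjusted p 0.023, edgeR). Estimates that crossed 0 ran, on RFD, from -0.019 to 0.14 for Pdx1, -0.26 to 0.039 for Mafa, -0.00997 to 0.20 for Nkx6-1, -0.16 to 0.13 for Mnx1, -0.19 to 0.23 for Neurog3 and -0.23 to 0.038 for the median of the factors. On HFD they ran from -0.20 to 0.052 for Nkx6-1 and -0.038 to 0.17 for Neurog3, and over both diets from -0.064 to 0.071 for Nkx6-1, -0.075 to 0.035 for Nkx2-2 and -0.031 to 0.14 for Neurog3. The cause was not tested. Neurog3 had the fewest counts of the 10, at 109 to 513 per islet library.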
